A study of Mus musculus with 4 samples.

Results

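The cells described here are LCMV-specific CD8+ T cells that carried Gzmb transcript, the mRNA of the cytotoxic protease granzyme B, but no transcript of the genes used to mark the other effector, memory or cycling states. The members were selected on their measured UMI counts. A cell was included when it had at least 500 detected genes, at most 10% mitochondrial UMIs (unique molecular identifiers, each standing for 1 captured mRNA molecule), at least 2 Gzmb UMIs and at least 1 UMI of Cd8a and Cd8b1 together. It also had to hold no UMI of terminal effector genes (Klrg1, Cx3cr1, Zeb2, S1pr5, Klre1), memory genes (Il7r, Tcf7, Ccr7), cycling genes (Mki67, Birc5, Top2a, Rrm2, Mcm5), interferon-response genes (Ifit1, Ifit3), B cell genes (Cd79a, Ms4a1) or myeloid genes (Csf1r, C1qb), and no more than 1 Ifng UMI. Of the 24893 cells that passed the gene and mitochondrial filters, 3561 met this rule. Cells with a Cd8a or Cd8b1 UMI and no UMI of the B cell and myeloid genes numbered 21521 and are called CD8 cells. These 3561 cells are called Gzmb effector cells below. The rule uses measured transcripts, so the absence of its marker genes and the presence of Gzmb in these cells are not findings.

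Mixed bone marrow chimeras were made by giving irradiated Rag1-/- hosts, which lack T and B cells of their own, a 1:1 mixture of WT marrow marked by CD45.1 (the B6.SJL congenic strain) and Bcl3-/- marrow marked by CD45.2, all on the C57BL/6 background. After reconstitution the chimeras were infected with LCMV Armstrong, and on day 8 p.i. GP33+ CD8+ T cells of each genotype were sorted from the spleen and profiled by droplet-based 3′ single-cell RNA sequencing. There were 4 libraries: WT1 and KO1 came from the WT and Bcl3-/- cells of chimera 1, and WT2 and KO2 from those of chimera 2. The deletion was present in all cells that grew from the Bcl3-/- marrow, so it was not restricted to T cells, and the congenic strain marker went with the genotype in both chimeras. Chimera 1 gave 688 WT and 466 Bcl3-/- Gzmb effector cells, and chimera 2 gave 1513 WT and 894 Bcl3-/- cells.

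During acute infection naive CD8+ T cells expand into a mixed effector population. Terminal effector cells carry KLRG1 and CX3CR1 and mostly die after the virus is cleared, while memory precursors keep the IL-7 receptor and TCF-1. Granzyme B enters the target cell through pores formed by perforin and starts its death. Bcl-3 belongs to the IkappaB proteins but works in the nucleus. There it joins DNA-bound NF-kappaB dimers of p50 or p52, as a co-activator or a co-repressor.

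The Gzmb effector cells of WT2 were the shallowest of the 4 libraries. The median was 3260 UMIs per cell in WT1, 3531 in KO1, 1943 in WT2 and 2859 in KO2, and the median number of detected genes was 1352 in WT1, 1430 in KO1, 961 in WT2 and 1296 in KO2. Summed over the Gzmb effector cells there were 2277286 UMIs in WT1, 1694762 in KO1, 3054769 in WT2 and 2618090 in KO2, and every level below is a count scaled to 1000000 of these UMIs (CPM) in 1 library unless another cell set is named. Because the assay counts transcript ends, a CPM value does not grow with transcript length. Pairs of libraries shared few cell barcodes among the Gzmb effector cells, at most 3.

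The first exclusion, of cells with a terminal effector UMI, removed more cells with Gzmb and CD8 transcript than any later step in each library. In WT1, 4017 cells had at least 2 Gzmb UMIs and a CD8 UMI; 2148 of them left because of a terminal effector UMI, 473 more because of a memory UMI and 493 more because of a cycling UMI. In KO1, 2998 of 4295 such cells left at the terminal effector step, 401 at the memory step and 266 at the cycling step. The corresponding numbers were 2198, 318 and 746 of 5220 in WT2 and 2807, 379 and 406 of 4738 in KO2. The edges of the rule were thinly drawn: cells that met every other criterion but held 1 Gzmb UMI numbered 83 in WT1, 98 in KO1, 428 in WT2 and 199 in KO2, against 96, 90, 409 and 196 included cells with exactly 2 in the same order. Cells that missed the rule by 1 terminal effector UMI numbered 280 in WT1, 358 in KO1, 555 in WT2 and 456 in KO2. The median Gzmb count of included cells was 5 UMIs in WT1 and KO1 and 4 in WT2 and KO2, and the highest counts in a single cell were 45, 34, 38 and 29 in the order WT1, WT2, KO1, KO2.

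Gzmb effector cells made up a larger share of CD8 cells in the WT than in the Bcl3-/- library of each chimera. The share was 16.5% in WT1 (95% exact binomial interval 15.4 to 17.7) and 10.0% in KO1 (9.20 to 10.9). In chimera 2 it was 21.7% in WT2 (20.8 to 22.7) and 15.5% in KO2 (14.6 to 16.5). These intervals cover counting error only. The WT mean was 19.1% ± 3.66 (SD, n = 2) and the Bcl3-/- mean 12.8% ± 3.88 (SD, n = 2), or -6.33 percentage points in Bcl3-/- against WT. Within chimeras the difference was -6.49 points in chimera 1 and -6.18 points in chimera 2. A 2-sided exact permutation test of 2 libraries against 2 gave p = 0.33, the smallest value it can give, so this unpaired test cannot pass a threshold of 0.05. After each cell was thinned to 1000 UMIs and the rule applied again, the shares were 23.9% in WT1, 19.6% in KO1, 22.6% in WT2 and 19.2% in KO2. On that scale the genotypes did not overlap, and the difference was -3.89 percentage points (exact permutation p = 0.33, again the smallest possible). Leaving out 1 library moved the unthinned difference to -8.93 points without WT1, -3.74 without WT2, -3.59 without KO1 and -9.08 without KO2. The share was lower in the deepest quartile of cells than in the shallowest quartile of every library, for example 8.57% against 21.8% in WT1 and 10.2% against 15.9% in KO2.

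**Figure D1:**
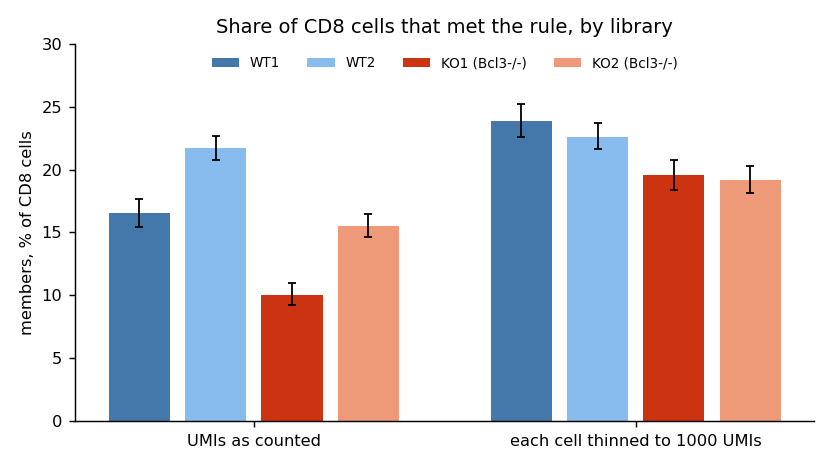
Share of CD8 cells that met the Gzmb effector rule (bars, y axis in percent from 0) in each library, for the cells as counted (left) and for cells thinned to 1000 UMIs (right). Error bars are 95% exact binomial intervals, which cover counting error only. The WT bar is above the Bcl3-/- bar of the same chimera on both sides.

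The label's markers Cxcr6 and Id2, which the rule did not use, were detected far more often than in B cells. CXCR6 is the receptor for CXCL16 and guides effector T cells into tissues. ID2 is a helix-loop-helix protein that blocks E proteins and favours effector over memory differentiation. At 1000 UMIs per cell, Cxcr6 was detected in 56.2% of Gzmb effector cells in WT1, 61.4% in KO1, 75.6% in WT2 and 70.2% in KO2, against 0%, 15.4%, 8.62% and 16.3% of the B cells of those libraries in the same order, which should lack it and were thinned to the same depth. Id2 was detected in 52.4%, 51.4%, 72.3% and 78.5% of Gzmb effector cells, in the order WT1, WT2, KO1, KO2, against 3.85% to 12.2% of the B cells. Neither marker was particular to these cells. In thinned CD8 cells with at least 2 Gzmb UMIs and a terminal effector UMI, Cxcr6 was detected in 42.1% to 64.7% and Id2 in 49.0% to 70.4%, by library. In those with a memory UMI and no terminal effector UMI, the ranges were 47.0% to 72.2% for Cxcr6 and 42.3% to 72.2% for Id2. Gzmb itself appeared in 8.16% to 15.4% of the thinned B cells, a measure of free RNA in the droplets. This measure may be too low, since Cd8a and Cd8b1 were at 0 CPM in the B cells of every library. The B cells were few, 27 in WT1, 26 in KO1, 65 in WT2 and 49 in KO2 before thinning.

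The T cell receptor chain Cd3g, which the rule did not use, was abundant in all 4 libraries at 1496 CPM in WT1, 1600 CPM in WT2, 1479 CPM in KO1 and 1510 CPM in KO2. The CD8 chains, of which the rule required at least 1 UMI, are given as a description only. Cd8b1 stood at 2107 CPM in WT1, 2021 CPM in WT2, 2227 CPM in KO1 and 2227 CPM in KO2, and Cd8a at 565, 555, 515 and 547 CPM. Markers of other cells were low but not at 0. The plasma cell list summed to between 167 and 194 CPM and the B cell list, led by Cd74, to between 225 and 310 CPM. Cd79a and Ms4a1 were at 0 by the rule, and no other gene of these lists present in the files was at 0. The myeloid list, led by Cst3, summed to between 489 and 525 CPM; Csf1r and C1qb were at 0 by the rule. CD4 T cell genes, led by Zbtb7b, summed to 17.0 to 25.6 CPM and NK and gamma-delta T cell genes, led by Eomes, to 29.8 to 50.7 CPM, with Sox13 at 0. GP33-specific CD8+ T cells express Eomes as well, so its part of this sum does not mark other cells. Erythroid genes, led by Hbb-bs, summed to 6.59 CPM in WT1, 12.4 CPM in WT2, 0.590 CPM in KO1 and 34.0 CPM in KO2.

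The neutrophil list had the largest difference between genotypes among these lists whose genotypes did not overlap; the B cell and myeloid sums were slightly lower and the CD4 T cell sum slightly higher in both Bcl3-/- libraries. Its 8 genes (S100a8, S100a9, Ly6g, Camp, Ngp, Elane, Prtn3, Mpo) summed to 340 CPM in WT1, 165 CPM in WT2, 769 CPM in KO1 and 1302 CPM in KO2. S100a8 was the most abundant gene of the list and none was at 0 in all libraries. The same list summed to 1238, 579, 2026 and 2299 CPM in the other CD8 cells and to 259, 211, 504 and 266 CPM in the B cells. Gzmb effector cells without any UMI of these genes numbered 244 of 688 in WT1, 1087 of 1513 in WT2, 70 of 466 in KO1 and 316 of 894 in KO2. The part of this neutrophil RNA in the differences between genotypes was not tested for each gene, but values over cells without any such UMI stand beside the main results below.

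The profile of Gzmb effector cells was led by the chemokine Ccl5 and by cytoskeletal genes. Ccl5, which attracts T cells and monocytes, stood at 21247 CPM in WT1, 39672 CPM in WT2, 31791 CPM in KO1 and 40992 CPM in KO2. WT1 was the lowest library and the genotypes overlapped. Ccl5 was also detected in 94.8% to 100% of the thinned B cells, so its detection does not separate cell types here. The other genes among the 15 most abundant, leaving out mitochondrial and ribosomal protein genes, were Tmsb4x, Malat1, Actb, Cd52, Tmsb10, B2m, AW112010, Crip1, Lgals1, Actg1, Ms4a4b, S100a6, H2-D1 and Ly6c2. Nkg7, a granule membrane protein of killer lymphocytes, was the most abundant gene of the cytotoxic list at 3810, 4300, 3786 and 3904 CPM.

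Within a library the cells were far from uniform for a few genes. The variance of thinned UMI counts was divided by their mean, a ratio that is 1 for pure counting noise. For Ccl5 it was 14.6 in WT1, 15.8 in KO1, 11.8 in WT2 and 10.8 in KO2. For Gzma, a tryptase of the same granules as granzyme B, it was 4.97, 7.29, 10.3 and 8.99 in the same order. For Gzmb, whose lower tail the rule removed, it was between 1.33 and 1.64. Gzma was detected in 18.7% of thinned Gzmb effector cells in WT1, 23.4% in KO1, 27.7% in WT2 and 23.4% in KO2, and in 7.69% to 18.4% of the thinned B cells.

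Compared with the 9113 CD8 cells that held at least 2 Gzmb UMIs and a terminal effector UMI (terminal marker cells), Gzmb effector cells had lower Gzma and cell division transcripts and higher levels of several homing and lymphoid genes. Because the rule divides these cells by their transcripts, the values are a description with no test. The rule also removed cycling and interferon-response cells from the Gzmb effector cells and not from the terminal marker or memory marker cells, so lower division and interferon-response transcripts follow from it. Gzma stood at 424 CPM against 1692 CPM in WT1, 772 against 2543 CPM in WT2, 537 against 2569 CPM in KO1 and 553 against 3273 CPM in KO2, a mean log2 ratio of -2.13. Cxcr6 stood at 967 against 738 CPM in WT1, 1592 against 1203 CPM in WT2, 1015 against 640 CPM in KO1 and 1364 against 938 CPM in KO2. All 4 libraries thus had less Gzma and more Cxcr6 in the Gzmb effector cells. Among 2708 genes above 50 CPM in either set, the highest mean log2 ratios that held in every library were those of Gpr183, an oxysterol receptor that positions lymphocytes (0.63), Ltb, lymphotoxin beta (0.54), Cd226, a co-stimulatory receptor (0.52), Cxcr6 (0.50) and Cxcr3, the receptor for interferon-induced chemokines (0.50), followed by Emb, Rftn1, Sit1, Sidt1 and Lcn4. The lowest were Hist1h2ap (-3.32), 2810417H13Rik (-2.67), Gzma, Asf1b, Stmn1, Ccnb2, Cdca8, Cks1b, Ube2c and Tuba1b, most of which are used in DNA replication or mitosis.

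Against the 1431 CD8 cells that held at least 2 Gzmb UMIs, a memory UMI and no terminal effector UMI (memory marker cells), Gzma had the highest ratio. It stood at 424 against 296 CPM in WT1, 772 against 425 CPM in WT2, 537 against 301 CPM in KO1 and 553 against 245 CPM in KO2, a mean log2 ratio of 0.84. Its level in Gzmb effector cells therefore lay between those of the memory marker and terminal marker cells in every library. Among 2706 genes above 50 CPM, Zfp524, Bcl3 (0.40), Lrrk1, Ppm1h, Ppm1b, AA467197, F2r and Ebpl were among those that followed. The lowest ratios were again those of division genes, Hist1h2ap (-1.86), 2810417H13Rik, Ccnb2, Stmn1 (-1.11), Cks1b, Cenpa and Cks2, together with the interferon-stimulated genes Isg15 (-0.85) and Usp18 and the neutrophil granule gene Camp.

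**Figure D2:**
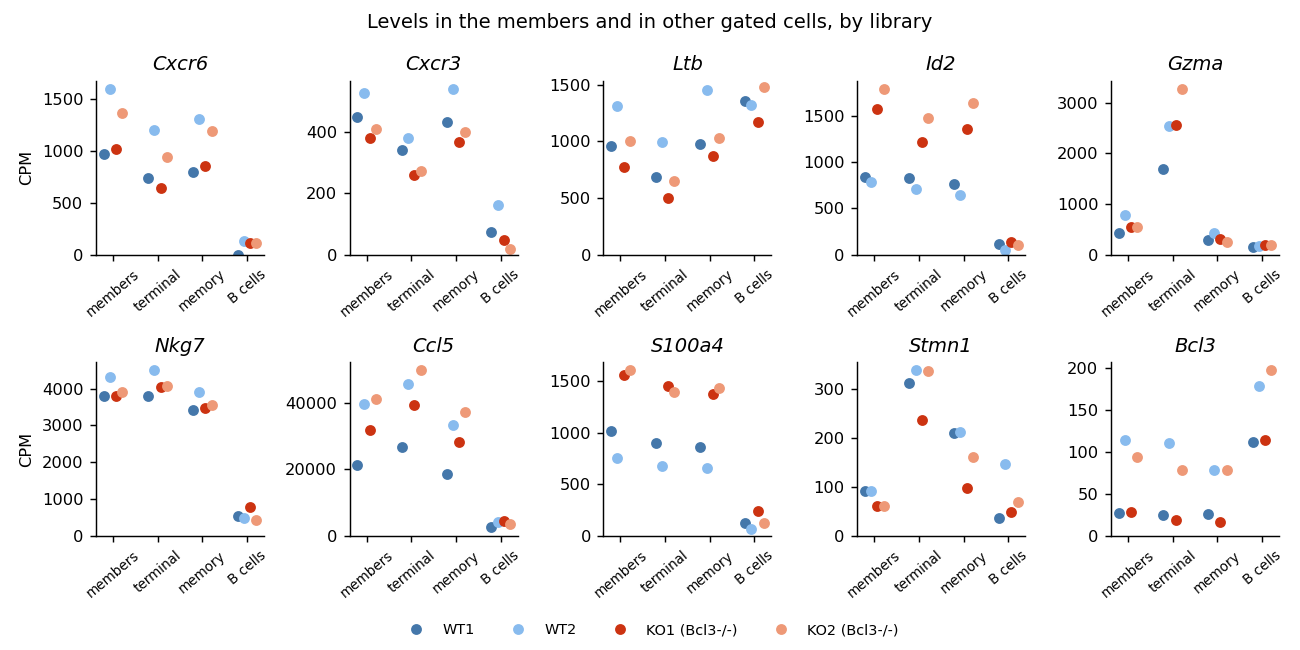
Levels of 10 genes (y axes, CPM from 0, 1 point per library) in Gzmb effector cells (members), in the terminal marker and memory marker cells and in the B cells. Gzma in Gzmb effector cells lies between the memory marker and terminal marker cells in all 4 libraries, and Cxcr6 lies above the terminal marker cells.

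The genotype comparison asked which genes differed between WT and Bcl3-/- Gzmb effector cells that had developed in the same hosts. Counts were summed per library and tested with edgeR's quasi-likelihood test, which found 39 of 8519 tested genes higher in Bcl3-/- cells (0.458%) and 7 lower (0.0822%) at a Benjamini-Hochberg adjusted p under 0.05. With the chimera as a replicate block, since both genotypes were sorted from each animal, 145 genes were higher (1.7%) and 120 lower (1.41%), and all 46 genes of the first fit were among them. For each of the 46 genes the libraries of the genotypes did not overlap; over all tested genes both Bcl3-/- libraries lay above both WT libraries for 21.9% and below them for 16.6%. Leaving out WT1 gave 141 higher and 59 lower genes, leaving out WT2 63 and 61, leaving out KO1 84 and 40, and leaving out KO2 50 and 12. In these fits 1 genotype has a single library, which is assumed to vary as the pair of the other genotype does. The median log2 fold change of all tested genes was 0.004.

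Bcl3 transcript did not follow the genotype labels. It stood at 26.8 CPM in WT1, 114 CPM in WT2, 28.3 CPM in KO1 and 94.0 CPM in KO2, with a log2 fold change of -0.20 ± 0.51 (SE) and an edgeR adjusted p of 0.943. The level differed between chimeras and not between the genotypes of a chimera. The gene lies at chr7:19808462-19822770 on the minus strand (mm10). The sources used here do not say which exons were removed, and 3′ counts from outside the removed part do not check the genotype.

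The markers Id2 and Cd3e rose in Bcl3-/- Gzmb effector cells, as did the transcription factor Bhlhe40, while the killing gene Prf1, the retention gene Cd69 and the AP-1 gene Jun fell. Id2 stood at 837 CPM in WT1, 780 CPM in WT2, 1570 CPM in KO1 and 1787 CPM in KO2. Its log2 fold change was 1.03 ± 0.13 (SE; edgeR adjusted p = 0.00364, with the block 2.37e-11). The higher level was seen as more cells with transcript, in the thinned detection shares given above. In Gzmb effector cells without neutrophil transcript Id2 was still called (edgeR adjusted p = 0.00505), and when the rule was applied to thinned cells its log2 fold change was 0.87 (edgeR adjusted p = 0.0664), called there with the block only.

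Cd3e encodes the epsilon chain of the T cell receptor complex. It stood at 530 CPM in WT1, 467 CPM in WT2, 920 CPM in KO1 and 1058 CPM in KO2, a log2 fold change of 0.97 ± 0.13 (SE; edgeR adjusted p = 0.00486, with the block 4.96e-10, and 0.00945 without the block in cells without neutrophil transcript). The WT and Bcl3-/- values were separated by more than the range within either genotype. Cd3d, the delta chain encoded next to it, stood at 1680, 1633, 1663 and 1562 CPM with a log2 fold change of -0.05 (adjusted p = 0.94 by edgeR). Of 17 tested genes of T cell receptor signalling, Cd3e was the 1 that rose and none fell; with the block Ptprc, which encodes CD45, also fell (log2 fold change -0.28, edgeR adjusted p = 0.0405). The CD45 allele differs between the WT and Bcl3-/- marrow by design.

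Bhlhe40 represses transcription of genes such as Il10 and is induced by T cell receptor signals. It stood at 64.6 CPM in WT1, 40.9 CPM in WT2, 106 CPM in KO1 and 114 CPM in KO2, a log2 fold change of 1.06 ± 0.19 (SE; edgeR adjusted p = 0.0337). Both Bcl3-/- libraries lay above both WT libraries. In cells without neutrophil transcript the log2 fold change was 1.10 (edgeR adjusted p = 0.119, with the block 1.30e-05). Without the block, the call was also lost in cells chosen after thinning (log2 fold change 0.84, edgeR adjusted p = 0.21). With at most 5% mitochondrial UMIs it was lost at 1.03 (0.0637). Of 15 tested effector transcription factors Id2 and Bhlhe40 rose and none fell, in both fits, and the median log2 fold change of the list was 0.03. T-bet (Tbx21) stood at 102, 113, 119 and 130 CPM (edgeR adjusted p = 0.695) and Runx3 at 115, 118, 121 and 114 CPM (adjusted p = 0.992).

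Perforin, the product of Prf1, forms the pores through which granzymes pass. Prf1 stood at 50.9 CPM in WT1, 39.9 CPM in WT2, 20.7 CPM in KO1 and 22.9 CPM in KO2, a log2 fold change of -1.06 ± 0.20 (SE; edgeR adjusted p = 0.0378, with the block 0.000906). The Bcl3-/- libraries were both below the WT libraries. The log2 fold change was -1.36 in cells without neutrophil transcript (edgeR adjusted p = 0.183, with the block 0.0222). It was -1.04 with 3 or more Gzmb UMIs required (edgeR adjusted p = 0.071) and -1.10 in cells chosen after thinning (0.126). The call was thus lost without the block while the difference was about as large. Of 16 tested cytotoxic genes Prf1 fell and none rose, 15 of the 16 fold changes were negative, and the median log2 fold change was -0.12. With the block the granzyme B inhibitor Serpinb9 (log2 fold change -0.43, edgeR adjusted p = 0.0203) and the related Serpinb6b (-0.33, adjusted p = 0.0361) fell as well. Gzmb was part of the rule and was left out of the test; its level was 1944 CPM in WT1, 2246 CPM in WT2, 1644 CPM in KO1 and 1766 CPM in KO2.

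CD69 holds activated T cells in tissue by opposing the egress receptor S1PR1. Cd69 stood at 47.4 CPM in WT1, 43.5 CPM in WT2, 18.3 CPM in KO1 and 21.4 CPM in KO2, a log2 fold change of -1.20 ± 0.18 (SE; edgeR adjusted p = 0.0152, with the block 1.51e-04). In cells without neutrophil transcript the log2 fold change was -1.03 and not called (edgeR adjusted p = 0.292, with the block 0.106). Of 17 tested homing and adhesion genes Cd69 fell and none rose; with the block Itgb7, an integrin chain for gut homing (log2 fold change -0.40, edgeR adjusted p = 0.00112), and Cxcr3 (-0.32, adjusted p = 0.0211) also fell. Cxcr6, a marker of the label, stood at 967, 1592, 1015 and 1364 CPM. The chimeras differed more than the genotypes did (log2 fold change -0.12, edgeR adjusted p = 0.90).

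Jun stood at 26.3 CPM in WT1, 27.2 CPM in WT2, 11.8 CPM in KO1 and 6.11 CPM in KO2, a log2 fold change of -1.68 ± 0.30 (SE; edgeR adjusted p = 0.0337). It was not called without KO2 (log2 fold change -1.16, edgeR adjusted p = 0.118) or in cells without neutrophil transcript (-1.30, adjusted p = 0.685, with the block 0.116). Of 16 tested AP-1 and immediate early genes Jun fell and none rose; with the block the mRNA decay factors Zfp36l2 (log2 fold change 1.04) and Zfp36 (0.93) rose. Junb stood at 141, 117, 122 and 147 CPM, with overlapping genotypes. Of 14 tested NF-kappaB and IkappaB genes none was called (median log2 fold change -0.10). With the block Nfkbia, which encodes the inhibitor IkappaB-alpha, fell: it stood at 173 CPM in WT1, 223 CPM in WT2, 116 CPM in KO1 and 181 CPM in KO2 (log2 fold change -0.44, edgeR adjusted p = 0.00695).

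**Figure D3:**
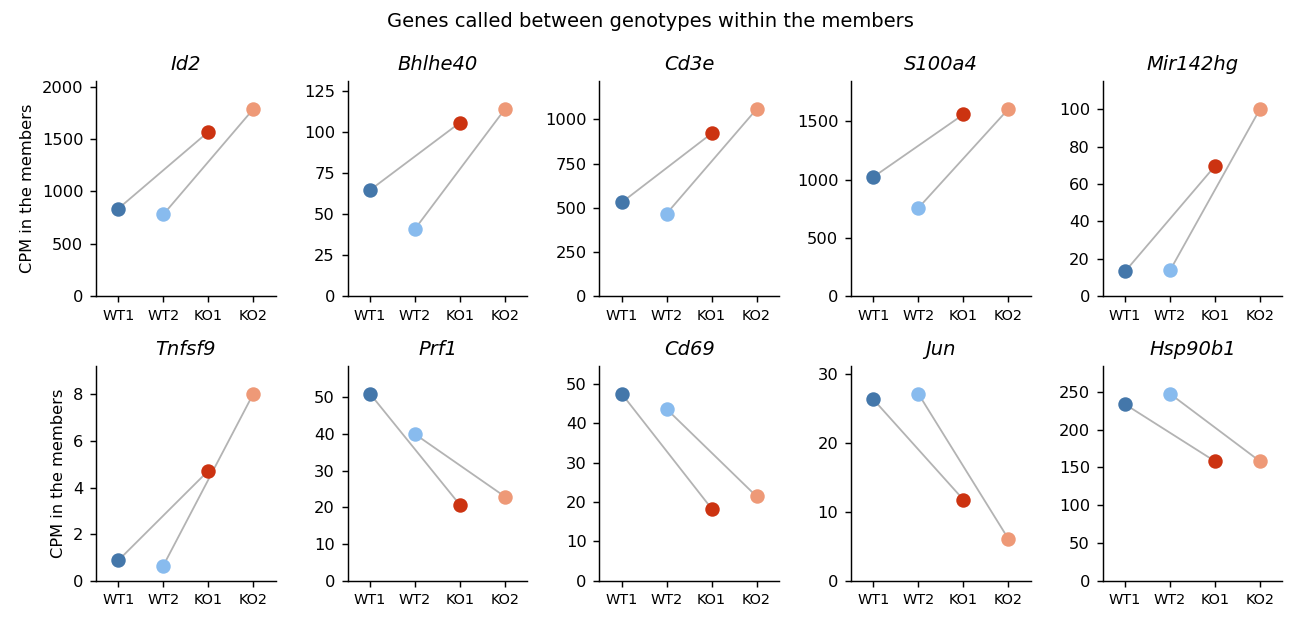
Levels of 10 called genes in Gzmb effector cells of each library (y axes, CPM, each from 0), with lines joining the WT and Bcl3-/- libraries of the same chimera. Id2, Bhlhe40, Cd3e, S100a4, Mir142hg and Tnfsf9 are higher and Prf1, Cd69, Jun and Hsp90b1 lower in the Bcl3-/- library of both chimeras.

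The lowest p of the genotype comparison was that of Mir142hg, the host transcript of the microRNA miR-142, which is abundant in all blood cells. Mir142hg stood at 13.2 CPM in WT1, 13.7 CPM in WT2, 69.6 CPM in KO1 and 100 CPM in KO2, a log2 fold change of 2.65 ± 0.20 (SE; edgeR adjusted p = 1.60e-04, with the block 4.96e-12). The WT libraries were nearly equal and both Bcl3-/- libraries lay far above them. The call held in cells without neutrophil transcript (edgeR adjusted p = 3.60e-04) and in cells chosen after thinning. The transcript lies at chr11:87755577-87757270 on the plus strand (mm10), and both mature arms of mmu-miR-142a lie inside it, at chr11:87756867-87756887 and chr11:87756903-87756925. The mature RNAs have no poly(A) tail and were not measured here. Their RefSeq sequences (GRCm38.p6) are shown, 5′ to 3′, because they are the product of the most clearly changed transcript, with the seed (bases 2 to 8) in capitals.
mmu-miR-142a-5p: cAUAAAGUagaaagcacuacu
mmu-miR-142a-3p: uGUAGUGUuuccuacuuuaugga
No other mature miRNA in the RefSeq table shared either seed.

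Further genes that rose, by role, included Nmt1, which attaches myristate to proteins such as Lck and stood at 19.3 CPM in WT1, 23.6 CPM in WT2, 67.9 CPM in KO1 and 76.0 CPM in KO2 (log2 fold change 1.72 ± 0.16 (SE), edgeR adjusted p = 5.47e-04). Bin2, a membrane-shaping protein of leukocytes, stood at 208, 177, 345 and 514 CPM (log2 fold change 1.14, adjusted p = 0.00981 by edgeR). S100a4, a calcium-binding protein of effector cells and the 1 gene called among 20 tested terminal effector genes outside the rule, stood at 1022, 756, 1558 and 1604 CPM (log2 fold change 0.81 ± 0.16 (SE), edgeR adjusted p = 0.0496). H2-T23, which encodes the non-classical MHC molecule Qa-1 and was the 1 riser among 21 tested MHC class I and peptide processing genes, stood at 22.4, 23.6, 41.3 and 47.7 CPM (edgeR adjusted p = 0.0348). None of that list fell, its median log2 fold change was -0.21, and with the block 3 rose (H2-T22, Tap2 and H2-T23) and 7 fell (H2-K1, H2-Q4, H2-Q6, Psmb10, Tapbp, Calr and Pdia3). The WT and Bcl3-/- libraries did not overlap for Nmt1, Bin2, S100a4 or H2-T23. Tnfsf9, which encodes the ligand of 4-1BB, had 2 UMIs in WT1, 8 in KO1, 2 in WT2 and 21 in KO2 (edgeR adjusted p = 0.0348), too few for a useful fold. The calls of S100a4 and Tnfsf9 were lost without WT2, and that of H2-T23 was lost without KO2 (log2 fold change 0.86). Without WT2 the log2 fold change of S100a4 was 0.58. That of Tnfsf9 was 2.79 there and 3.04 with all libraries, both from few UMIs. In cells without neutrophil transcript Nmt1 (edgeR adjusted p = 0.031) and Bin2 (0.00458) were called, while S100a4 was at a log2 fold change of 0.76 (0.0596) and H2-T23 at 1.10 (0.189), both called there with the block. Prkcd, a protein kinase C, Dtx1, a Notch pathway ubiquitin ligase, and Rassf5, an adaptor of integrin activation, rose by 0.79 to 1.20 on the log2 scale, and without KO2 their log2 fold changes were 0.99, 0.64 and 0.68 and none was called (edgeR adjusted p from 0.0627 to 0.125). In cells without neutrophil transcript Rassf5 was called (edgeR adjusted p = 0.0348). Dtx1 was called there with the block only (edgeR adjusted p = 0.237, with the block 0.0163), and Prkcd in neither fit (0.375, with the block 0.101). Their log2 fold changes without the block were 0.80 and 1.06 there, against 0.80 and 1.20 in all Gzmb effector cells.

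S100a8 and S100a9, the abundant calcium-binding proteins of neutrophils, were also called. S100a9 stood at 99.7 CPM in WT1, 43.9 CPM in WT2, 310 CPM in KO1 and 308 CPM in KO2 (log2 fold change 2.11 ± 0.27 (SE), edgeR adjusted p = 0.00437). S100a8 stood at 190 CPM in WT1, 93.6 CPM in WT2, 391 CPM in KO1 and 684 CPM in KO2 (log2 fold change 1.91 ± 0.29 (SE), edgeR adjusted p = 0.0152). At 1000 UMIs per cell S100a8 was detected in 15.6% of Gzmb effector cells in WT1, 24.9% in KO1, 9.71% in WT2 and 15.7% in KO2, so the shares of WT1 and KO2 were close. The differences depended on the cells included. In cells chosen after thinning, the log2 fold change was 0.88 for S100a9 and 0.49 for S100a8 (edgeR adjusted p = 0.587 and 0.792). With 3 or more Gzmb UMIs it was 1.12 and 0.75 (edgeR adjusted p = 0.281 and 0.517). Of the 4 tested genes of the neutrophil list these 2 rose, and with the block all 4 rose, with Ngp at 20.6, 10.5, 30.1 and 169 CPM. The summed level of the list in the other CD8 cells and the B cells is given above.

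The other falls included Hsp90b1, the chaperone GRP94 of the endoplasmic reticulum, Gbp6 and Hist1h2ap. Hsp90b1 stood at 234 CPM in WT1, 247 CPM in WT2, 158 CPM in KO1 and 158 CPM in KO2 (log2 fold change -0.62 ± 0.12 (SE), edgeR adjusted p = 0.0387). Without KO1 the log2 fold change was -0.66 (edgeR adjusted p = 0.0506) and without KO2 it was -0.58 (0.181), neither of them called. Hsp90b1 was the 1 of 12 tested chaperone genes that fell, and none rose; with the block 5 fell (Hspa8, Hsp90ab1, Hsp90b1, Hspa5 and Pdia6), and the median log2 fold change of the list was -0.25. Gbp6, an interferon-induced GTPase, stood at 41.3, 57.6, 16.5 and 16.0 CPM (log2 fold change -1.64, edgeR adjusted p = 0.00437). In cells without neutrophil transcript the log2 fold change was -0.68 for Hsp90b1 (edgeR adjusted p = 0.106, with the block 0.00108) and -1.48 for Gbp6 (0.172, with the block 0.00159). Hist1h2ap, a histone H2A gene, stood at 119, 79.9, 33.6 and 10.7 CPM (log2 fold change -2.28, edgeR adjusted p = 0.018). With the block the 5 largest falls also took in Styx (log2 fold change -2.58), Rnasek (-2.10) and Eno1b (-1.95), of which Rnasek and Eno1b share 100% and 75% of their 3′ windows with other genes, as described next, so their counts are uncertain.

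Gbp6 and Hist1h2ap share most of their 3′ ends with other genes, which matters because reads that match several genes are not counted for any. Of the 60-base windows in the last 400 bases of their transcripts, 93.6% and 100% occurred in another gene. Over 50% of windows were shared for 16 of the 46 called genes (34.8%) and for 175 of 8509 tested genes (2.06%). These 16 were 13 of the 39 that rose, among them Rps27rt, Rpl6l, Rpl23a-ps3, Cdk2ap1, Rnaset2a, Rnaset2b, Plp2 and AY036118, and 3 of the 7 that fell. Their counts are uncertain, and without them 26 genes rose and 4 fell (Jun, Cd69, Prf1 and Hsp90b1). Id2, Cd3e, Bhlhe40, Mir142hg, Nmt1, S100a8, S100a9 and Tnfsf9 shared 0% of their windows. Gm12840, Gm26825 and Gm6133 were among the predicted genes that rose.

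The lists of interferon-stimulated genes (which does not hold Gbp6), glycolysis and inhibitory receptors had no called member in the fit without the block, but their medians were below 0. Of 21 tested interferon-stimulated genes outside the rule none passed, with a median log2 fold change of -0.29; with the block 8 fell and none rose, among them Ly6a, Ifi27l2a, Ifi47, Gbp2, Bst2, Oas1a and Isg15. Ly6a, the Sca-1 antigen, stood at 1328 CPM in WT1, 1480 CPM in WT2, 1030 CPM in KO1 and 1075 CPM in KO2 (blocked edgeR adjusted p = 3.10e-04). Of 16 tested glycolysis genes none passed, with a median of -0.19, and with the block the enzymes Eno1, Pkm and Pgk1 fell. Of 11 tested inhibitory receptor genes none passed, with a median of -0.30, and with the block Lag3 fell: it stood at 145 CPM in WT1, 137 CPM in WT2, 103 CPM in KO1 and 71.4 CPM in KO2 (edgeR adjusted p = 1.18e-04).

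The remaining lists held few or no calls. None of 9 tested cytokines and chemokines passed; with the block Ccl5 rose (log2 fold change 0.30, edgeR adjusted p = 0.0497) and Ltb fell (-0.37, adjusted p = 0.00269). Ccl5 turned to -0.13 when WT1 was left out, so its direction rested on that library. None of 17 tested memory and naive genes, 18 cytokine receptors, 13 Bcl2 family and caspase genes, 26 cell cycle genes and 83 oxidative phosphorylation genes passed, and 1 of 81 ribosomal protein genes did (Rpl6l, higher). With the block Cd27, a co-stimulatory receptor of memory precursors, rose (log2 fold change 0.39, edgeR adjusted p = 0.00675) and Ltb fell among the memory and naive genes. Il21r and Tgfbr2 rose and Ifngr1 fell among the cytokine receptors, and no Bcl2 family gene was called in either fit. With the block 1 oxidative phosphorylation gene rose and 3 fell (74 of 83 fold changes were negative, median log2 fold change -0.11), 5 ribosomal protein genes rose and 3 fell (median -0.04), and Ccnd3 rose and Stmn1 fell among the cell cycle genes (median -0.11). In the list of terminal effector genes the block added Klrc1 and Anxa1 as higher and Crip1 and Anxa2 as lower.

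The NF-kappaB site was looked for in the promoters of called genes, because Bcl-3 acts on DNA through NF-kappaB subunits. The letters GGGNNNNNCC were searched on both strands of the 250 bases before the start of each gene with a RefSeq promoter (GRCm38.p6). They were found for 62.1% of 6622 tested genes, for 10 of 21 genes that rose (47.6%) and for all 3 genes that fell and had an entry (Prf1, Jun and Hsp90b1). A match on these terms is common, and its use as a site is not measured here. The windows of Prf1 at chr10:61297803-61297832 (plus strand) and Jun at chr4:95052300-95052329 (minus strand) are shown in the direction of the gene, because both genes fell, with 1 match in capitals.
Prf1: tgacaacgcaGGTGTCCCCCtgggcttcag
Jun: ccatggcgacGGGTGGGCCCgcccccctga
In Prf1 the match is on the opposite strand, and in Jun further matches overlap the one in capitals.

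Since the WT marrow was congenic and the Bcl3-/- marrow carried the targeted locus, called genes near Bcl3 on chromosome 7 and near Ptprc on chromosome 1 were counted. Within 10 Mb of Bcl3 lay 134 tested genes (1.57%) and 1 called gene, Nccrp1. Nccrp1 stood at 8.78 CPM in WT1, 5.24 CPM in WT2, 20.1 CPM in KO1 and 29.8 CPM in KO2. Between the genotypes it differed by 1.88 on the log2 scale (Bcl3-/- against WT). With KO2 left out this difference was 1.57, and Nccrp1 was not called. Within 10 Mb of Ptprc lay 50 tested genes (0.587%) and 1 called gene, Rassf5, at 99.2, 98.2, 156 and 188 CPM. With the block 7 genes near Bcl3 (Lig1, Pglyrp1, Vasp, Arhgef1, Zfp36, Nccrp1 and Ech1) and 3 near Ptprc (Rassf5, Ptpn7 and Ptprc) were called. For these genes, strain of origin and the deletion cannot be told apart.

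**Figure D4:**
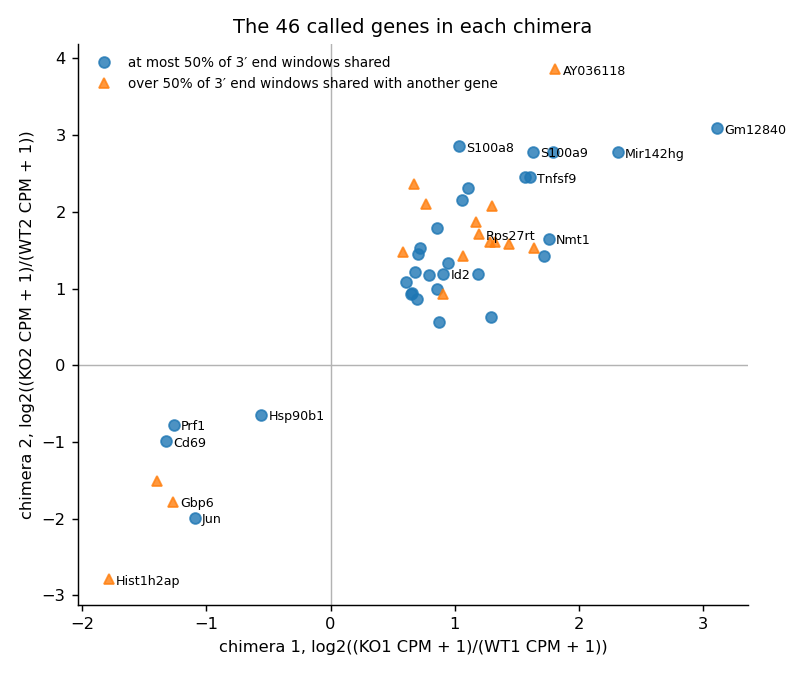
Log2 ratio of Bcl3-/- to WT levels (CPM with 1 added) in chimera 1 (x axis) and chimera 2 (y axis) for the 46 called genes, 1 point each; triangles are the 16 genes with over 50% of their 3′ end windows shared with another gene. The 39 higher genes lie in the upper right and the 7 lower genes in the lower left quadrant.

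Most genotype differences were of like size in the other CD8 cells of the same libraries. All 46 called genes were tested there, 19 of them were called without the block and 46 with it. The log2 fold change of Id2 was 1.03 in Gzmb effector cells and 0.88 in the other CD8 cells, that of Cd3e 0.97 and 0.94, that of Mir142hg 2.65 and 2.59 and that of Prf1 -1.06 and -1.11. The interaction of genotype and cell set, tested in edgeR with each library as a block, was not called for any of these 4 genes (adjusted p from 0.31 to 0.998). This does not show that the differences were equal.

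The interaction was called for 12 of 10521 genes, with a genotype difference (Bcl3-/- against WT) that was higher in Gzmb effector cells than in other CD8 cells for 7 (0.0665%) and lower for 5 (0.0475%). Gzma had the lowest p: in the other CD8 cells it stood at 1128 CPM in WT1, 1490 CPM in WT2, 2006 CPM in KO1 and 2198 CPM in KO2, and in Gzmb effector cells at 424, 772, 537 and 553 CPM. Its level was thus higher in both Bcl3-/- libraries among the other CD8 cells, while the genotypes overlapped among the Gzmb effector cells. The difference of the log2 fold changes was -0.82 ± 0.06 (SE; edgeR adjusted p = 1.34e-17). Terminal marker cells made up 1834 of 4161 CD8 cells in WT1, 2003 of 6967 in WT2, 2677 of 4638 in KO1 and 2599 of 5755 in KO2. The part of this makeup in the Gzma interaction was not tested. Serpina3g, a serine protease inhibitor of activated CD8 T cells, differed by 0.71 (edgeR adjusted p = 0.00139), and S100a8, S100a9, Camp, Ngp and the globin genes Hbb-bs and Hba-a1 made up the rest of the higher group.

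**Figure D5:**
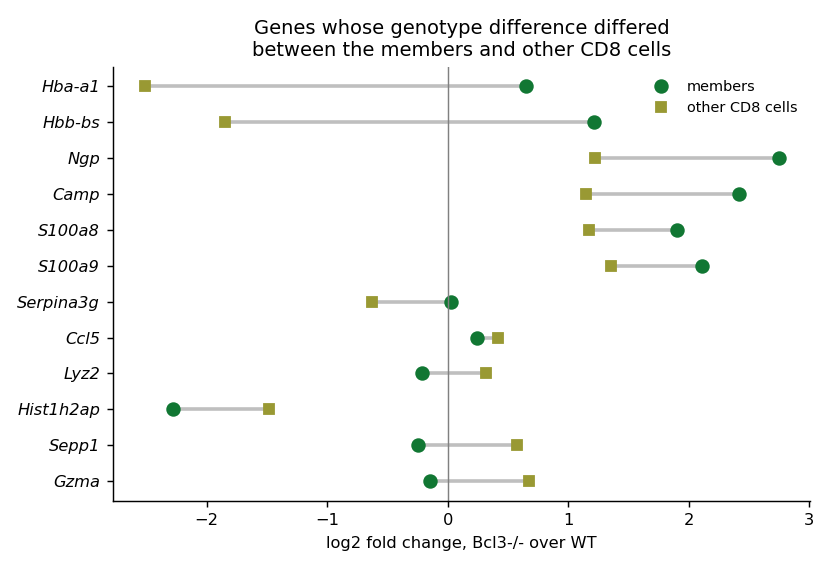
Log2 fold change of Bcl3-/- over WT (x axis) in Gzmb effector cells (circles) and in the other CD8 cells (squares) for the 12 genes with a called interaction (y axis). Gzma is at -0.15 in Gzmb effector cells and at 0.67 in the other CD8 cells.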

How the data were processed

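The authors deposited UMI counts per gene and cell barcode for 4 libraries. The submitters' processing notes name bcl2fastq 2.17, Cell Ranger 2.2.0 and mm10. Totals were 21193300 UMIs in WT1, 22922219 in KO1, 20358780 in WT2 and 22672343 in KO2. Members and gene lists were chosen with earlier results of these data known.

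Cells with 500 genes and at most 10% mitochondrial UMIs were kept. No doublet caller was run; cells over 2 times the median UMIs were left out as an alternative. Cells are not replicates, so counts were summed per library and tested with edgeR 4.0.16 in R 4.3.3 (TMM, low-count filter, quasi-likelihood), leaving out the genes of the rule. DESeq2 1.42.0 was an alternative. P-values rest on 2 chimeras in all, each of which gave a WT and a Bcl3-/- library, and the fit without the block ignores this pairing.

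WT and Bcl3-/- libraries of the same number come from the same chimera; their deviations from the genotype means correlated (r = 0.245 across 6676 genes above 10 CPM). The block is therefore shown beside results.

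On simulated data with 200 changed genes, edgeR recovered 83.5% of 2-fold and 99% of 4-fold changes in the genotype comparison (8330 and 8308 genes). It called 19 and 15 unchanged genes, or 26 and 24 with the block. In each of these fits unchanged genes made up more of the calls than the 0.05 threshold is meant to allow. The changed genes were drawn only from those with enough expected UMIs, and the simulated chimeras did not differ. Recovery of low-count genes, and the block where chimeras differ, were therefore not tested.

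Named genes were the 10 largest rises and falls (5 with the block), called list members or else the 2 most abundant, the 10 highest and lowest ratios to each like cell set, Bcl3, the rule's genes and the 15 most abundant genes. Promoter and miRNA sequences are from RefSeq, and positions from GENCODE vM21. Of the gene IDs, 276 were not in that annotation. Some genes that these rules name are not reported here.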

Additional observations from a re-analysis of the deposited data

Results flagged for a closer look

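For 12 genes the genotype difference in Gzmb effector cells differed from that in the other CD8 cells by the test of the interaction itself (edgeR, each library as a block). Each value is the genotype difference (log2, Bcl3-/- against WT) in Gzmb effector cells minus that in the other CD8 cells. It was -0.82 for Gzma (adjusted p = 1.34e-17), 0.73 for S100a9 (8.70e-09), 0.75 for S100a8 (1.67e-07), 1.48 for Ngp (4.62e-05) and 1.23 for Camp (0.00121). The last 4 are neutrophil genes. The whole neutrophil list of 8 genes summed to 340, 165, 769 and 1302 CPM in Gzmb effector cells (WT1, WT2, KO1, KO2). In the other CD8 cells it summed to 1238, 579, 2026 and 2299 CPM, in the same order.

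The globin genes Hbb-bs and Hba-a1 differed by 2.87 (adjusted p = 3.73e-07) and 2.98 (4.62e-05). These sizes are uncertain, since Hbb-bs had 5, 16, 1 and 41 UMIs and Hba-a1 5, 13, 0 and 24 UMIs in Gzmb effector cells of WT1, WT2, KO1 and KO2. Hbb-bs was lowest in KO1 in both sets, at 0.590 CPM in Gzmb effector cells and 0.541 CPM in the other CD8 cells, and stood at 15.7 and 14.8 CPM in KO2. Serpina3g differed by 0.71 (0.00139), at 40.4, 77.9, 73.2 and 52.3 CPM in Gzmb effector cells, where the genotypes overlapped. The difference was -0.47 for Lyz2 (0.00238), -0.15 for Ccl5 (0.00591), -0.80 for Sepp1 (0.0307) and -0.71 for Hist1h2ap (0.0453).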

How the results depend on the processing

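The share difference stayed negative in every setting run, from -3.59 to -9.08 points when single libraries were left out, and the genotypes overlapped with a Gzmb minimum of 1 UMI (-7.62). With the chimera as a replicate block, 145 genes were higher and 120 lower in place of 39 and 7. DESeq2's Wald test gave 23 and 2, and no filter on low counts 118 and 68. Cells chosen after thinning gave 13 and 2 (289 and 242 with the block). Equal cells and UMIs per library gave 12 lower genes and a Gzmb minimum of 1 UMI 11. Leaving out each library in turn gave 50 to 141 higher and 12 to 61 lower genes. Settings chosen after seeing the data were the thinned rule with the block, all cells passing the filters (31 and 9), members without neutrophil UMIs (24 and 2; 81 and 65 with the block) and the other CD8 cells in place of the members (25 higher; 489 and 495 with the block). Of the 46 called genes, DESeq2 kept 22, cells chosen after thinning 13 and equal cells 34, all in the same direction. With the block all 46 were called in cells chosen after thinning. Without it Prf1 (-1.10) and Jun (-1.72) lost their calls there at a like log2 fold change, while S100a9 stood at 0.88 in place of 2.11. The 12 interactions became 2 with DESeq2 and 4 with at least 3 Gzmb UMIs. Leaving out single libraries gave log2 fold changes of -0.13 to 0.73 for Ccl5 and -0.69 to 0.051 for Rpl15; both changed sign without WT1. The cause was not tested for any of these. With 2 chimeras, the exact test of the share could not go below 0.33.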

Other observations

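Several genes differed between the chimeras in the same way in both genotypes of Gzmb effector cells; they were chosen after their values were seen and were not tested. Tpm3-rs7 stood at 20.2 CPM in WT1 and 26.6 CPM in KO1, against 302 and 323 CPM in the libraries of chimera 2. The kinase gene Pim2 stood at 60.2 and 57.2 CPM in chimera 1 and at 130 and 112 CPM in chimera 2, and the integrin gene Itgb1 at 156 and 142 CPM against 301 and 339 CPM. Ctse, a cathepsin, went the other way, at 193 and 168 CPM in chimera 1 and 9.17 and 10.7 CPM in chimera 2, as did the interferon-induced Ifitm1, at 106 and 120 CPM against 44.8 and 42.4 CPM. Ifitm1 also varied among the cells of each library, with a variance of thinned UMIs over their mean between 2.52 and 4.61.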
